A study of Mus musculus with 18 samples.

Results

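The genes described here are 7 that handle heme inside and across the membranes of the cell: Hmox1 and Hmox2, Blvra and Blvrb, and the transporter genes Slc48a1, Flvcr1 and Flvcr2. They were chosen by name, for their place in the pathway, and with earlier results of these data known. Their counts beside the shares of all genes are thus a description. They are 7 of the 22485 genes with a symbol on the array. The array carried 10 probes for them, 2 each for Hmox1, Hmox2 and Blvra and 1 each for the other 4, and the values of several probes of a gene were averaged.

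RNA was profiled from macrophages grown in culture from the bone marrow of 8 to 10 week old mice with M-CSF at 10 ng/ml over 7 days. There were 5 groups: 5 arrays of Nrf2-/- cells and 3 arrays of Nrf2+/+ cells that received heme bound to albumin at 200 µM for 4 h and then LPS (bacterial endotoxin, 10 ng/ml) for 4 h; 4 arrays of Nrf2-/- cells and 3 arrays of Nrf2+/+ cells with LPS for 4 h; and 3 arrays of Nrf2+/+ cells with albumin and no heme for 4 h. Nrf2-/- cells, called knockout here, lack the transcription factor NRF2, and Nrf2+/+ cells are called wild type. Each array set 1 such sample, in the Cy5 channel, against untreated macrophages in the Cy3 channel, and each value is the log2 of that ratio. No knockout group was free of LPS, the labels of the LPS groups name no albumin, no array had its dyes swapped, and the sources used here do not state the genotype of the untreated reference RNA. Replicates carry the letters a to e. The study's design text calls them independent, and nothing says whether they came from separate mice.

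Heme is broken down in 2 steps. Heme oxygenase opens the ring and releases iron, carbon monoxide and biliverdin, and biliverdin reductase then turns biliverdin into bilirubin. Macrophages that take up red cells must also carry heme out of the phagolysosome to reach this enzyme, and can send heme out of the cell. Hmox1, the inducible heme oxygenase gene, is a textbook target of NRF2 and is repressed by BACH1, which leaves the DNA when it binds heme.

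Exact zeros, which may stand for a missing estimate, made up 17.9% to 48.8% of the values per array, and the LPS-treated arrays lettered a were at 44.3% to 48.8%. The deleted gene, Nfe2l2, had a listed value of 0 on each of the 9 knockout arrays and on 2 of the 3 albumin arrays. All 7 genes marking macrophages were measured, but a ratio to another macrophage sample gives no level, so the cell type could not be checked by it. None of the 8 measured of 10 erythroid marker genes passed the test in any comparison of heme and LPS with LPS, or of knockout with wild type. With heme and LPS against LPS, 1 of the 7 macrophage markers was lower and none higher in the knockout, and 2 were lower and none higher in wild type. Fcgr1 fell by -2.44 in the knockout (limma adjusted p = 0.0288) and by -5.38 in wild type (adjusted p = 0.000202). Mertk fell in wild type, by -3.08 (adjusted p = 0.0168). Of 10 neutrophil markers 1 was higher in the knockout and 2 in wild type. Of 5 stromal markers 1 was higher in the knockout, and 1 higher and 1 lower in wild type. Of 4 measured B cell markers none passed in the knockout and Blnk fell in wild type, by -2.27 (limma adjusted p = 0.00153). No dendritic cell, T and NK cell or mast cell and basophil marker passed in either. The part of such shifts in the results was not tested, and in these bulk samples fewer cells of a type and less RNA per cell cannot be told apart.

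RefSeq promoter windows (GRCm38.p6) matched 5 of the 7 genes by symbol, all but Hmox1 and Slc48a1, with 8 windows in all. A window covers 250 bases before to 50 after a start site listed for the gene, called the gene start here. Some genes have several windows, and a start site can lie inside the gene.

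The windows below are those of Blvrb and Hmox2, whose ratios changed with heme, and those of Blvra and Flvcr1, which hold the first of 2 motifs searched. Each runs 5′ to 3′ along the strand of its gene, and capitals mark the letters TGACNNNGC, the core of the antioxidant response element that NRF2 and small MAF proteins bind, searched on both strands.
Blvrb, chr7:27447728-27448027, plus strand: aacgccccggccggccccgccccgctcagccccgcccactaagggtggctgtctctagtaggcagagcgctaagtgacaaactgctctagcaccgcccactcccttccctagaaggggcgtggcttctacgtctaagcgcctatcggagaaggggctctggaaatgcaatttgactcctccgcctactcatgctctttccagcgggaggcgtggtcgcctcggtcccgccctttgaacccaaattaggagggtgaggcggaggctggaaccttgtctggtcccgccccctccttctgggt
Hmox2, chr16:4741363-4741662, plus strand: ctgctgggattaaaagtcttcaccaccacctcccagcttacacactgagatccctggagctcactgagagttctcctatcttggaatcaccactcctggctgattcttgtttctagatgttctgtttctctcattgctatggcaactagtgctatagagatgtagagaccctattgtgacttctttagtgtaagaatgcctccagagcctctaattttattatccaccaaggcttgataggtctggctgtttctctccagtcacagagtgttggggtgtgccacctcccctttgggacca
Blvra, chr2:127070407-127070706, plus strand: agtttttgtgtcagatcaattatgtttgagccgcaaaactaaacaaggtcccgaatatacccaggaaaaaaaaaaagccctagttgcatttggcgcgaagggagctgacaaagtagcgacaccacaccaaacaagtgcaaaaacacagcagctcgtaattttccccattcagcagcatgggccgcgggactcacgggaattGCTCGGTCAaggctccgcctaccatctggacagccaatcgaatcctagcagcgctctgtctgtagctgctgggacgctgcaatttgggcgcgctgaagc
Flvcr1, chr1:191026141-191026440, minus strand: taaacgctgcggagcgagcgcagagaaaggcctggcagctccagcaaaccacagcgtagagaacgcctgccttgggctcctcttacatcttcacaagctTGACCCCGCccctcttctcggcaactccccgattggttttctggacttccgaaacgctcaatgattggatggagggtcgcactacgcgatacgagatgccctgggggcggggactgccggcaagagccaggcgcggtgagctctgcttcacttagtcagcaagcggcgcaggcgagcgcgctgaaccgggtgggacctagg

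The letters TGACNNNGC stood in 2 of the 8 windows of these genes, beside 12.4% of all 32851 windows in the table. In Blvra they lie on the reverse strand and start 49 bases before the gene start, and in Flvcr1 they lie on the gene's strand, 151 bases before it. Both windows of Blvrb, of which the first is printed, and the 3 windows of Hmox2, of which the first is printed, did not hold these letters. The 3 windows of Hmox2 begin at 4741363, 4756631 and 4756696 on chromosome 16, and the last 2 overlap. All lie inside the gene, whose record begins at 4726361. The start of that record is in none of them and was not searched. The E-box CACGTG, which overlaps no match above, was found in 7.15% of all windows and in 1 window of these genes, that of Flvcr2 (chr12:85746289-85746588, plus strand), 20 bases before the gene start. A match is a stretch of letters and not a measured binding site.

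With heme bound to albumin before LPS, Hmox1, Blvrb and Slc48a1 were higher and Hmox2 was lower than with LPS, in knockout and in wild-type macrophages. The labels give the LPS groups no albumin and no 4 h step before LPS. Effects of heme, of its albumin and of that step cannot be told apart, and changes with heme below stand for them together. In LPS against albumin, effects of LPS and of any difference in albumin cannot be told apart either. In the knockout 4 of the 7 genes passed the test in this comparison, 3 higher and 1 lower, where 6.77% of all 22485 genes passed. In wild type the count was again 4 of 7, 3 higher and 1 lower, where 14.7% of all genes passed. The median difference over the 7 genes was 0.23 in the knockout and 0.74 in wild type, and that over all genes was 0 in both. Throughout, a gene passed at an adjusted p under 0.05 in limma, with p-values adjusted over all genes by the Benjamini-Hochberg method, and differences are given with the standard error of that fit.

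Hmox1, which encodes the inducible heme oxygenase HO-1, had log2 ratios of 3.52, 2.97, 2.23, 2.54 and 1.73 on the knockout heme and LPS arrays a to e, and of 4.47, 3.85 and 4.28 on the wild-type heme and LPS arrays a to c. With LPS alone the ratios were -1.44, -1.52, -1.12 and -1.56 in the knockout and -1.12, -0.51 and -0.51 in wild type, and on the albumin arrays they were -0.81, -0.87 and -0.81. All 8 heme arrays lay above the reference and all 10 others below it, and no knockout heme array reached the lowest wild-type one. The 3 albumin arrays were thus also below the reference.

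The rise of Hmox1 with heme was 4.01 ± 0.28 in the knockout (16.1-fold, limma adjusted p = 3.40e-06), against 4.91 ± 0.34 in wild type (30.1-fold, adjusted p = 6.44e-07). The difference between these responses was -0.90 ± 0.44 and did not pass the test (adjusted p = 0.674), with a 95% interval of -1.85 to 0.05. The probes gave rises of 3.73 and 4.29 in the knockout and of 4.26 and 5.56 in wild type. Under LPS alone the wild-type arrays did not differ detectably from the albumin arrays, by 0.12 ± 0.34 (adjusted p = 0.888), and the probes had opposite signs there, 0.50 and -0.27. The heme and LPS arrays of wild type stood 5.03 ± 0.34 above the albumin arrays (adjusted p = 2.21e-07).

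Hmox2 encodes the constitutive heme oxygenase HO-2. Its ratios were -0.80, -1.04, -0.77, -0.58 and -1.05 on the knockout heme and LPS arrays, and -1.86, -1.48 and -1.66 on the wild-type ones. Without heme, under LPS, they were -0.13, -0.46, -0.13 and -0.09 in the knockout and -0.28, -0.29 and -0.17 in wild type, and under albumin -0.37, -0.39 and -0.39. Hmox2 was thus lowest on the wild-type heme arrays, then on the knockout heme arrays, with no overlap between these 2 groups or with any other.

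The fall of Hmox2 with heme was -0.64 ± 0.11 in the knockout (1.56-fold, limma adjusted p = 0.00222), against -1.42 ± 0.13 in wild type (2.67-fold, adjusted p = 5.19e-06). Its probes fell alike, by 0.68 and 0.60 in the knockout and by 1.42 and 1.42 in wild type. Hmox2 was the only 1 of the 7 genes whose response differed between genotypes by the test of the difference itself, the interaction, which 0.947% of all genes passed. That difference was 0.78 ± 0.17 (adjusted p = 0.0442). It held the same direction in all 28 alternatives, at 0.68 to 0.87, but kept its call in 6 of them and in 3 of the 18 fits that left out 1 array, whose adjusted p went up to 0.115. Against albumin, Hmox2 was lower by -1.28 ± 0.13 in wild type with heme and LPS (adjusted p = 7.49e-06), and differed by 0.14 ± 0.13 under LPS (adjusted p = 0.486).

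**Figure D1:**
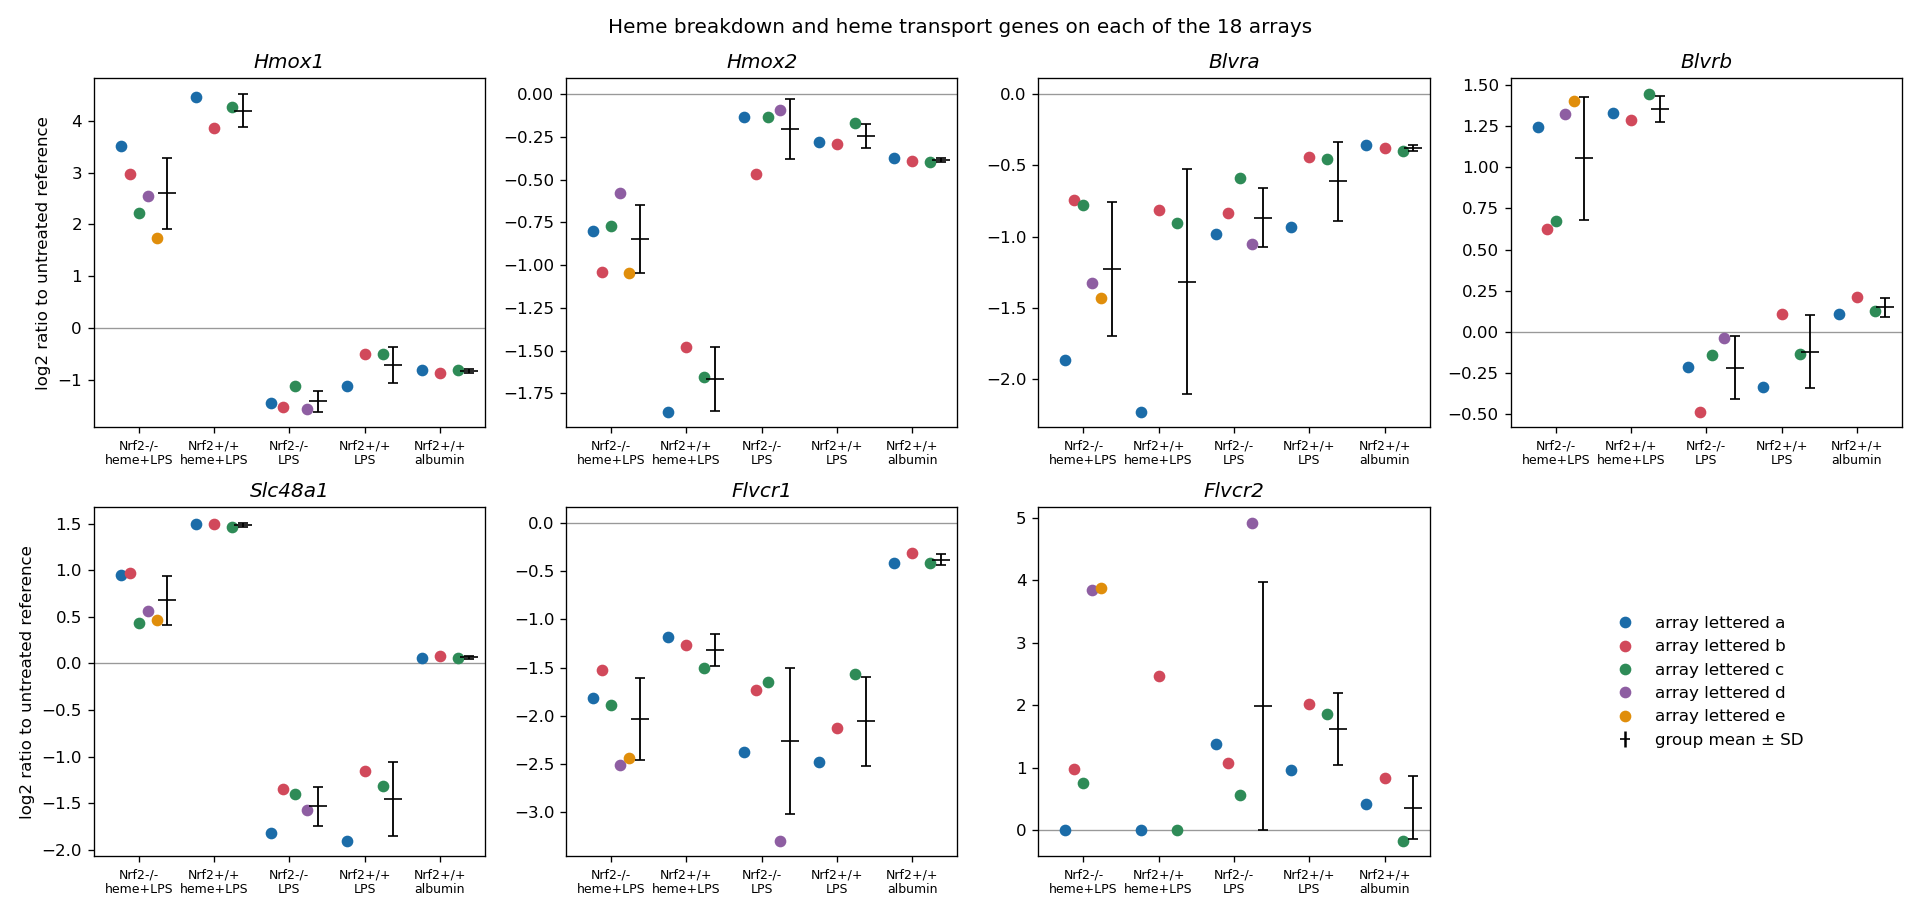
Log2 ratio of each of the 7 genes to the untreated reference on each of the 18 arrays, by group, coloured by array letter; bars give the group mean ± SD and are left out where an array is listed at exactly 0. Hmox1 is above 0 on the 8 heme arrays and below 0 on the other 10, Hmox2 is lowest on the wild-type heme arrays, and Flvcr2 is highest on the knockout arrays lettered d and e.

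The biliverdin reductase genes differed from each other in their response. Blvrb, whose enzyme also reduces flavins, had ratios of 1.25, 0.63, 0.67, 1.32 and 1.40 on the knockout heme and LPS arrays and of 1.33, 1.29 and 1.45 on the wild-type ones. In cells given LPS only they were -0.21, -0.49, -0.14 and -0.04 in the knockout and -0.34, 0.11 and -0.14 in wild type, and under albumin 0.11, 0.21 and 0.12. Each heme array lay above every array without heme, and the knockout heme arrays spread over a wider range than the wild-type ones, which they overlapped.

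Blvrb rose with heme by 1.28 ± 0.16 in the knockout (2.42-fold, limma adjusted p = 0.000299), against 1.48 ± 0.20 in wild type (2.79-fold, adjusted p = 0.000132). The responses differed by -0.20 ± 0.25 (95% interval -0.75 to 0.34, adjusted p = 0.973). In wild type the heme and LPS arrays were 1.21 ± 0.20 above albumin (adjusted p = 0.000384), while LPS differed from albumin by -0.27 ± 0.20 (adjusted p = 0.353).

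Blvra encodes the reductase that acts on the form of biliverdin that heme oxygenase makes. Its ratios were -1.86, -0.74, -0.78, -1.32 and -1.43 on the knockout heme and LPS arrays and -2.23, -0.81 and -0.91 on the wild-type ones. Under LPS they were -0.98, -0.83, -0.59 and -1.05 in the knockout and -0.93, -0.44 and -0.46 in wild type, and under albumin -0.36, -0.38 and -0.40. The arrays lettered a were the lowest in both heme groups, and the heme and LPS arrays overlapped with the LPS arrays in either genotype.

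For Blvra the difference of heme and LPS from LPS was -0.36 ± 0.28 in the knockout (adjusted p = 0.626), and -0.71 ± 0.34 in wild type (adjusted p = 0.235). All 3 wild-type heme and LPS arrays lay below all albumin arrays. That difference, -0.94 ± 0.34, missed the threshold (adjusted p = 0.0551) and passed it in 7 of 27 alternatives. It was -1.19 without the wild-type heme and LPS array b (adjusted p = 0.0288) and -1.14 without array c (adjusted p = 0.0421). Without the wild-type heme and LPS array a it was -0.48 (adjusted p = 0.243).

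Slc48a1, also called HRG1, encodes the transporter that moves heme from the phagolysosome into the cytosol. Its ratios were 0.95, 0.97, 0.44, 0.56 and 0.46 on the knockout heme and LPS arrays and 1.49, 1.50 and 1.46 on the wild-type ones. On the LPS arrays they were -1.81, -1.35, -1.40 and -1.57 in the knockout and -1.90, -1.15 and -1.31 in wild type, while the albumin arrays were near the reference, at 0.06, 0.08 and 0.06. The wild-type heme arrays were the highest, the knockout heme arrays came next, then the albumin arrays and last the LPS arrays of both genotypes. Only the LPS arrays of the genotypes overlapped.

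With heme, Slc48a1 rose by 2.21 ± 0.15 in the knockout (4.62-fold, limma adjusted p = 3.40e-06), against 2.94 ± 0.19 in wild type (7.67-fold, adjusted p = 3.23e-07). The responses differed by -0.73 ± 0.24, which did not pass the test (95% interval -1.26 to -0.21 before adjustment, adjusted p = 0.281). LPS alone lowered Slc48a1 in wild type relative to albumin, by -1.52 ± 0.19 (2.87-fold, adjusted p = 3.28e-05). Heme given before LPS left it 1.42 ± 0.19 above albumin instead (2.68-fold, adjusted p = 7.46e-05).

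Flvcr1 encodes a membrane protein known for exporting heme from the cell. Its ratios were -1.82, -1.53, -1.89, -2.52 and -2.45 on the knockout heme and LPS arrays and -1.18, -1.26 and -1.51 on the wild-type ones. On the LPS arrays they were -2.37, -1.73, -1.65 and -3.30 in the knockout and -2.48, -2.13 and -1.57 in wild type, and under albumin -0.41, -0.31 and -0.42. Every LPS-treated array, with or without heme, lay below every albumin array.

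Flvcr1 fell under LPS in wild type relative to albumin, by -1.68 ± 0.38 (3.20-fold, limma adjusted p = 0.00349). Together with Slc48a1 it made up the 2 of 7 genes that passed in that comparison, both lower, where 28.6% of all genes passed; that share is near the background. Heme and LPS differed from LPS for Flvcr1 by 0.23 ± 0.31 in the knockout (adjusted p = 0.838) and by 0.74 ± 0.38 in wild type (adjusted p = 0.266), neither past the threshold. The wild-type heme and LPS arrays differed from albumin by -0.94 ± 0.38 (adjusted p = 0.0811), which passed in 5 of 27 alternatives, among them the fit without the knockout LPS array d (adjusted p = 0.0242).

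Flvcr2 encodes a related transporter that has been described as a heme importer and as a choline transporter. Its ratios were 0.00, 0.98, 0.75, 3.84 and 3.88 on the knockout heme and LPS arrays and 0.00, 2.47 and 0.00 on the wild-type ones. On the LPS arrays they were 1.38, 1.08, 0.56 and 4.91 in the knockout and 0.96, 2.02 and 1.86 in wild type, and under albumin 0.43, 0.83 and -0.17. The 3 zeros are exact and may be missing estimates, and the knockout arrays lettered d and e stood far above the rest of their groups.

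No comparison of Flvcr2 passed the test. Heme and LPS differed from LPS by -0.09 ± 0.99 in the knockout (adjusted p = 1) and by -0.79 ± 1.20 in wild type (adjusted p = 0.843), and with the zeros taken as missing these were 0.38 and 0.86, where the wild-type value rests on 1 heme array. The 95% interval in wild type, -3.36 to 1.78, spans large changes in both directions, so that no statement on Flvcr2 can be made at this spread. Flvcr1 and Flvcr2 ran against each other over the 18 arrays, with a Pearson correlation of -0.68. The arrays share groups and a reference, so this is a description.

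**Figure D2:**
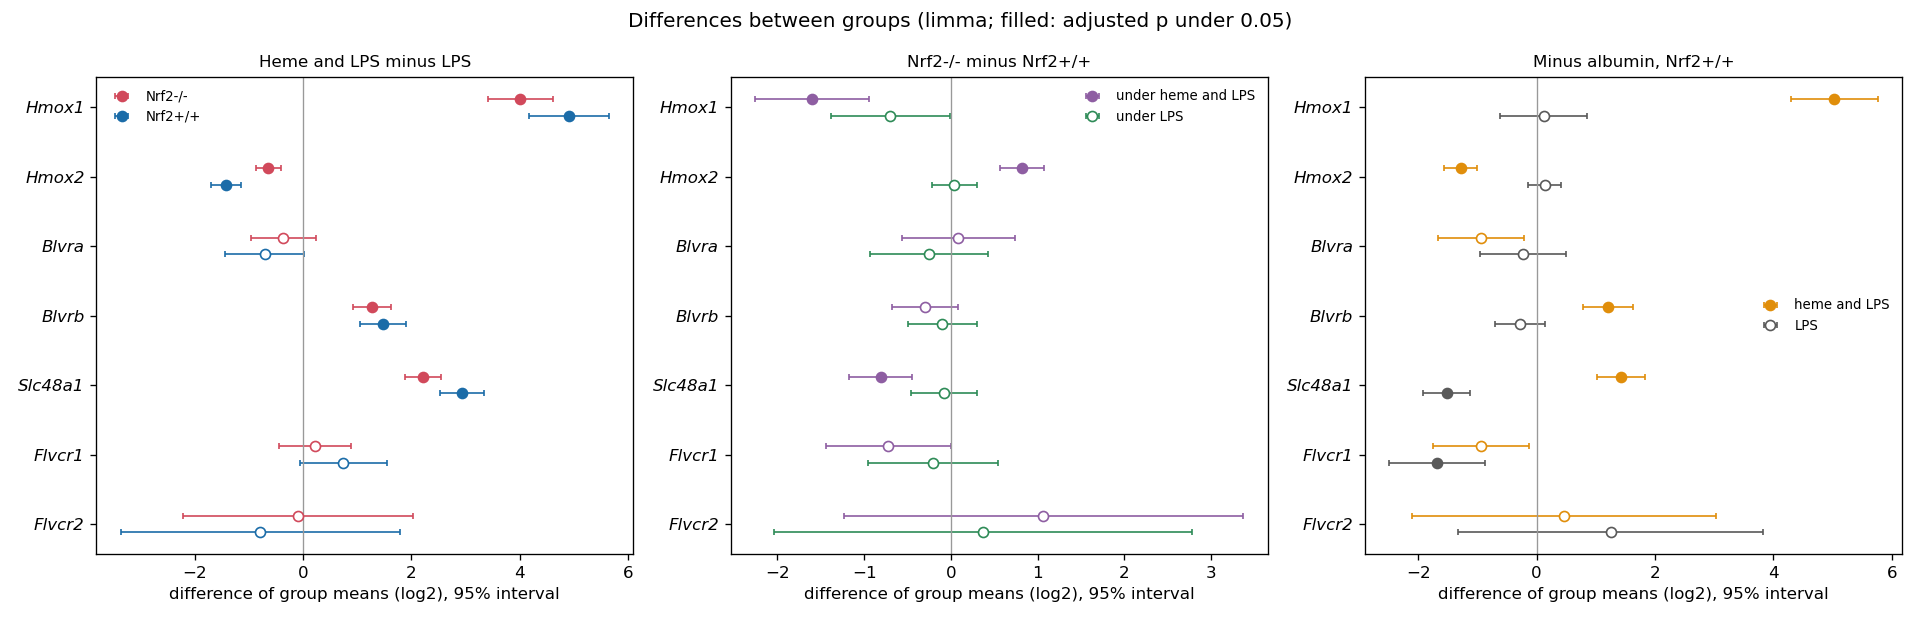
Differences of group means on the log2 scale with 95% intervals from limma, for heme and LPS minus LPS in each genotype (left), knockout minus wild type under each treatment (middle) and each wild-type treatment minus albumin (right); filled points passed at an adjusted p under 0.05. Hmox1, Blvrb and Slc48a1 rise and Hmox2 falls with heme in both genotypes, and the intervals of Flvcr2 are the widest.

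Between wild-type cells with heme and LPS and those with albumin, 4 of the 7 genes passed, 3 higher and 1 lower, where 27.3% of all genes passed. These were Hmox1, Blvrb and Slc48a1, which rose, and Hmox2, which fell, with the values above. The comparison combines both agents and shares the heme arrays with that against LPS, so the 2 sets of values are not independent. For each of these 4 genes the wild-type heme arrays lay on the same side of the albumin arrays as of the LPS arrays.

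Under LPS alone knockout and wild type did not differ detectably in any of the 7 genes, where 0.00445% of all genes passed, which is 1 gene, with 557 genes at an unadjusted p under 0.05. The size of the difference was greatest for Hmox1, at -0.70 ± 0.32 (limma adjusted p = 1). For Hmox1 the genotypes overlapped only between the knockout array c and the wild-type array a, both at -1.12. The pairs of the same letter a, b and c were each lower in the knockout, by -0.32, -1.01 and -0.61. At 3 and 4 arrays the 95% interval for Hmox1 was -1.38 to -0.01 before adjustment.

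Under heme and LPS 3 of the 7 genes passed, 1 higher and 2 lower in the knockout, where 5.29% of all genes passed. In the same comparison the macrophage marker Fcgr1 was higher in the knockout by 3.09 (limma adjusted p = 0.0143) and the B cell marker Blnk by 1.44 (adjusted p = 0.0359), and the neutrophil marker S100a8 was lower by -1.95 (adjusted p = 0.0170). These were the only markers of the 8 lists to pass there, and their part in the result was not tested. Hmox2 was higher in the knockout by 0.82 ± 0.12 (1.76-fold, limma adjusted p = 0.000649). Array by array, the pairs of the same letter a, b and c differed by 1.06, 0.44 and 0.89, and all 28 alternatives kept the call.

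Hmox1 was lower in knockout cells with heme and LPS by -1.60 ± 0.31 (3.03-fold, limma adjusted p = 0.00588), and pairs of the same letter differed by -0.95, -0.88 and -2.05. Fitted on the compared groups alone the adjusted p was 0.155. Arrays of the same letter deviated together in this comparison, and with the letter as a replicate block the difference was -1.31, with an adjusted p of 0.0303 over all 18 arrays and of 0.0768 over the LPS-treated arrays only. The array lettered e has no partner and so does not enter the blocked value.

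Slc48a1 was lower in the knockout by -0.81 ± 0.17 (1.75-fold, limma adjusted p = 0.0103), and pairs of the same letter differed by -0.54, -0.53 and -1.03. The adjusted p was 0.0649 on the compared groups alone and 0.107 without the knockout arrays lettered d and e. With the replicate block the difference was -0.72, with an adjusted p of 0.0450 over all arrays and 0.0911 over the LPS-treated arrays only, again without array e. The other 4 genes did not pass, at -0.30 ± 0.18 for Blvrb (adjusted p = 0.444), 0.09 ± 0.30 for Blvra (adjusted p = 0.973), -0.72 ± 0.34 for Flvcr1 (adjusted p = 0.311) and 1.07 ± 1.07 for Flvcr2 (adjusted p = 0.717).

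**Figure D3:**
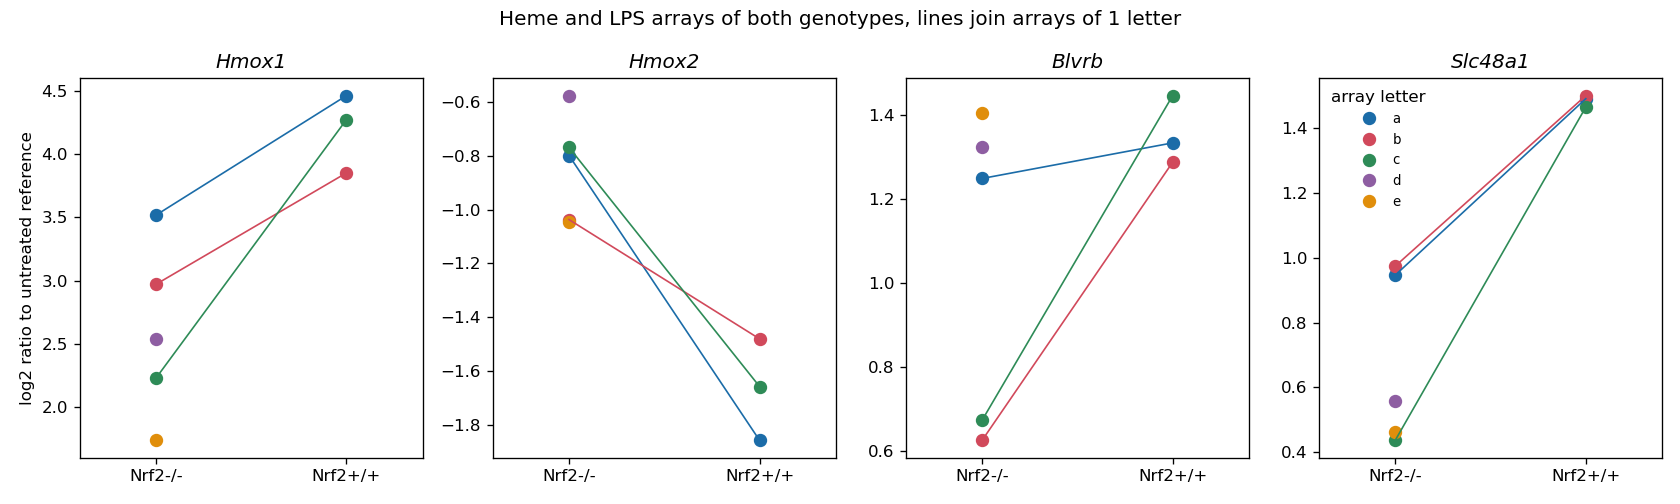
Log2 ratios of Hmox1, Hmox2, Blvrb and Slc48a1 on the heme and LPS arrays of the knockout (left) and wild type (right), with lines joining arrays of the same letter; knockout arrays d and e have no wild-type partner. In each joined pair Hmox1, Blvrb and Slc48a1 are lower and Hmox2 is higher in the knockout, while Blvrb arrays of the genotypes overlap.

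Over the 18 arrays the genes that heme raised followed each other closely. The Pearson correlation of Hmox1 was 0.925 with Blvrb, 0.899 with Slc48a1 and -0.905 with Hmox2, whereas it was 0.07 with Flvcr1 and -0.13 with Flvcr2. Among the 13163 genes listed at exactly 0 on at most 3 arrays, the 5 most like Hmox1 were Pir (0.984), Gclm (0.980), Zwint (0.978), Psmd5 (0.977) and Acadvl (0.974). For Slc48a1 they were Chpf2 (0.983), Micall1 (0.974), Gzf1 (0.969), E2f6 (0.968) and Mad2l1bp (0.965). For Blvrb they were Mapre3 (0.968), Gm5278 (0.960), Ftl2-ps (0.956), Mfn1 (0.955) and Ftl1 (0.954), of which Ftl1 and its near-copy Ftl2-ps are uncertain since their probes may not tell them apart. These correlations describe arrays that share groups, treatments and a reference, and carry no p. Hmox1, Blvrb and Slc48a1 are grouped here because they were higher with heme on these same arrays. Their likeness to each other thus follows in part from that choice.

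The list drawn up around the partner and regulators of heme oxygenase was led by Mafg and Spic. A place in this list does not mean that a gene regulates heme oxygenase. Of its 11 genes 10 were measured, all but Por, the gene of the reductase that supplies heme oxygenase with electrons. With heme and LPS against LPS, 2 of the 10 rose and none fell in the knockout, and 3 rose and none fell in wild type, where 6.77% of all genes passed in the knockout and 14.7% in wild type, with median differences of 0.00 in the knockout and 0.80 in wild type, against 0 for all genes in both. Mafg, a small MAF partner of NRF2, rose by 1.60 ± 0.18 in the knockout (limma adjusted p = 0.000121) and by 2.58 ± 0.22 in wild type (adjusted p = 2.93e-06). Spic, a transcription factor of red pulp macrophages that BACH1 represses, rose by 2.47 ± 0.50 in the knockout (adjusted p = 0.00807) and by 4.49 ± 0.61 in wild type (adjusted p = 0.000159). Its value in the knockout lost the call without the arrays lettered d and e (adjusted p = 0.0707).

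Bach1 itself, which encodes the repressor, differed by -0.62 ± 0.40 in the knockout (adjusted p = 0.519) and by -0.12 ± 0.48 in wild type (adjusted p = 1), neither past the threshold. In the knockout the difference was -1.01 without the heme and LPS array a (adjusted p = 0.0344) and -0.87 with every LPS-treated array of letter a left out (adjusted p = 0.0223), both past it. Nfe2l2, the deleted gene, had ratios of 0.13, 1.0 and 0.80 on the wild-type heme and LPS arrays and of -0.59, -0.45 and 0.16 on the wild-type LPS arrays. That difference was 0.94 ± 0.19 (limma adjusted p = 0.00394), and its call was lost on the compared groups alone (0.208) and with zeros taken as missing (0.106). The spread behind the main fit takes in every knockout array, each listed at exactly 0, with an SD of 0. The SD was 0.46 on the wild-type heme and LPS arrays and 0.40 on the wild-type LPS arrays. The adjusted p of 0.00394 thus does not measure the spread of the compared groups. Between knockout and wild type with heme and LPS, 3 of the 10 measured genes of that list passed, each lower in the knockout, where 5.29% of all genes passed. Nfe2l2 is counted among these 3, but its 5 knockout values there are exact zeros, so its difference is no measured fall, and its call held in 7 of 26 alternatives.

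Among the 9 genes measured for other heme transporters and heme-binding proteins, 1 rose and none fell with heme in the knockout, where 6.77% of all genes passed, and 3 rose and none fell in wild type, where 14.7% did. Abcb6, a porphyrin transporter, rose by 1.77 ± 0.14 in the knockout (limma adjusted p = 8.48e-06) and by 2.63 ± 0.17 in wild type (adjusted p = 3.23e-07). Pgrmc1, a heme-binding membrane protein, had ratios of 0.17 to 0.52 on the 5 knockout heme and LPS arrays and 1.09 to 1.63 on the 3 wild-type ones, against -0.04 to 0.14 on the knockout LPS arrays and 0.06 to 0.13 on the wild-type LPS arrays. It differed by 0.29 ± 0.09 in the knockout (adjusted p = 0.0885) and rose by 1.32 ± 0.11 in wild type (adjusted p = 3.32e-06). The knockout difference passed in 3 alternatives, with every LPS-treated array of letter a left out (adjusted p = 0.0498), without the wild-type heme and LPS array b (0.0135) and without the knockout heme and LPS array a (0.0482). The responses of Pgrmc1 differed by -1.03 ± 0.15 (adjusted p = 0.00316; 0.0719 with the replicate block over the LPS-treated arrays and 0.0525 after quantile normalization). Pgrmc2, a relative of Pgrmc1, differed by 0.36 ± 0.14 in the knockout (adjusted p = 0.158) and rose by 1.02 ± 0.17 in wild type (adjusted p = 0.000704), with no tested difference between the responses past the threshold (adjusted p = 0.274). Against albumin, Pgrmc2 was lower in wild type under LPS, by -1.55 ± 0.17 (limma adjusted p = 9.70e-06). With heme and LPS it was still below albumin, by -0.53 ± 0.17 (adjusted p = 0.0297, kept in 22 of 27 alternatives).

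Of 5 genes for the uptake of heme and hemoglobin from outside, Cd163, Lrp1, Hpx, Hp and Slc46a1, none passed between heme and LPS and LPS alone in the knockout or in wild type. Over all genes 6.77% passed there in the knockout and 14.7% in wild type. Against albumin, LPS raised Hp, which encodes the hemoglobin binder haptoglobin, by 3.03 ± 0.93 (limma adjusted p = 0.0231). It lowered Lrp1, the receptor of heme-hemopexin complexes, by -0.69 ± 0.15 (adjusted p = 0.00366) and Slc46a1, a folate and heme carrier, by -1.06 ± 0.23 (adjusted p = 0.00243). In that comparison 28.6% of all genes passed.

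Genes for the iron and bilirubin that heme breakdown yields included both risers and fallers. Of 12 measured of 13, all but Ugt1a1, 5 rose and 1 fell with heme in the knockout, where 6.77% of all genes passed, and 5 rose and 1 fell in wild type, where 14.7% did. Slc40a1, the iron exporter ferroportin, had ratios of -2.16, 0.76, -0.64, -1.14 and -1.21 on the knockout heme and LPS arrays and of 0.56, 3.68 and 3.19 on the wild-type ones. On the LPS arrays they were -4.11, -4.02, -3.16 and -3.83 in the knockout and -5.01, -2.55 and -2.57 in wild type, and under albumin -0.21, -0.24 and -0.16. The heme arrays thus lay above the LPS arrays in both genotypes, and the lowest wild-type heme array lay within the range of the knockout ones. Against albumin, Slc40a1 was lower in wild type under LPS, by -3.17 ± 0.84 (limma adjusted p = 0.0101). With heme and LPS it was above albumin there, by 2.68 ± 0.84 (adjusted p = 0.0269, kept in 20 of 27 alternatives). Of the knockout heme arrays only b, at 0.76, lay above the albumin arrays.

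Slc40a1 rose by 2.90 ± 0.69 in the knockout (limma adjusted p = 0.0196) and by 5.85 ± 0.84 in wild type (adjusted p = 0.000229), and these rises did not differ by the test (-2.95 ± 1.08, adjusted p = 0.373). Under heme and LPS it was lower in the knockout than in wild type, by -3.36 ± 0.75 (adjusted p = 0.0158). That call held in 24 of 28 alternatives, and was lost on the compared groups alone (0.177). The rise in the knockout lost its call without any of the knockout LPS arrays a, b or d (adjusted p of 0.0637, 0.0510 and 0.0527). The same rise lost it without the arrays lettered d and e (0.127), and that in wild type on the compared groups alone (0.0626). Abcc1, an exporter of organic anions, rose by 0.67 ± 0.17 in the knockout (adjusted p = 0.0276; kept in 19 of 28 alternatives) and by 2.21 ± 0.21 in wild type (adjusted p = 5.84e-06), and the responses differed by -1.54 ± 0.27 (adjusted p = 0.0107). Slc11a1, the phagosomal metal transporter, rose by 1.87 ± 0.19 in the knockout (adjusted p = 6.02e-05) and by 1.68 ± 0.23 in wild type (adjusted p = 0.000167). Tfrc, the transferrin receptor for iron uptake, fell by -1.60 ± 0.26 in the knockout (adjusted p = 0.00173) and by -1.86 ± 0.31 in wild type (adjusted p = 0.000841).

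**Figure D4:**
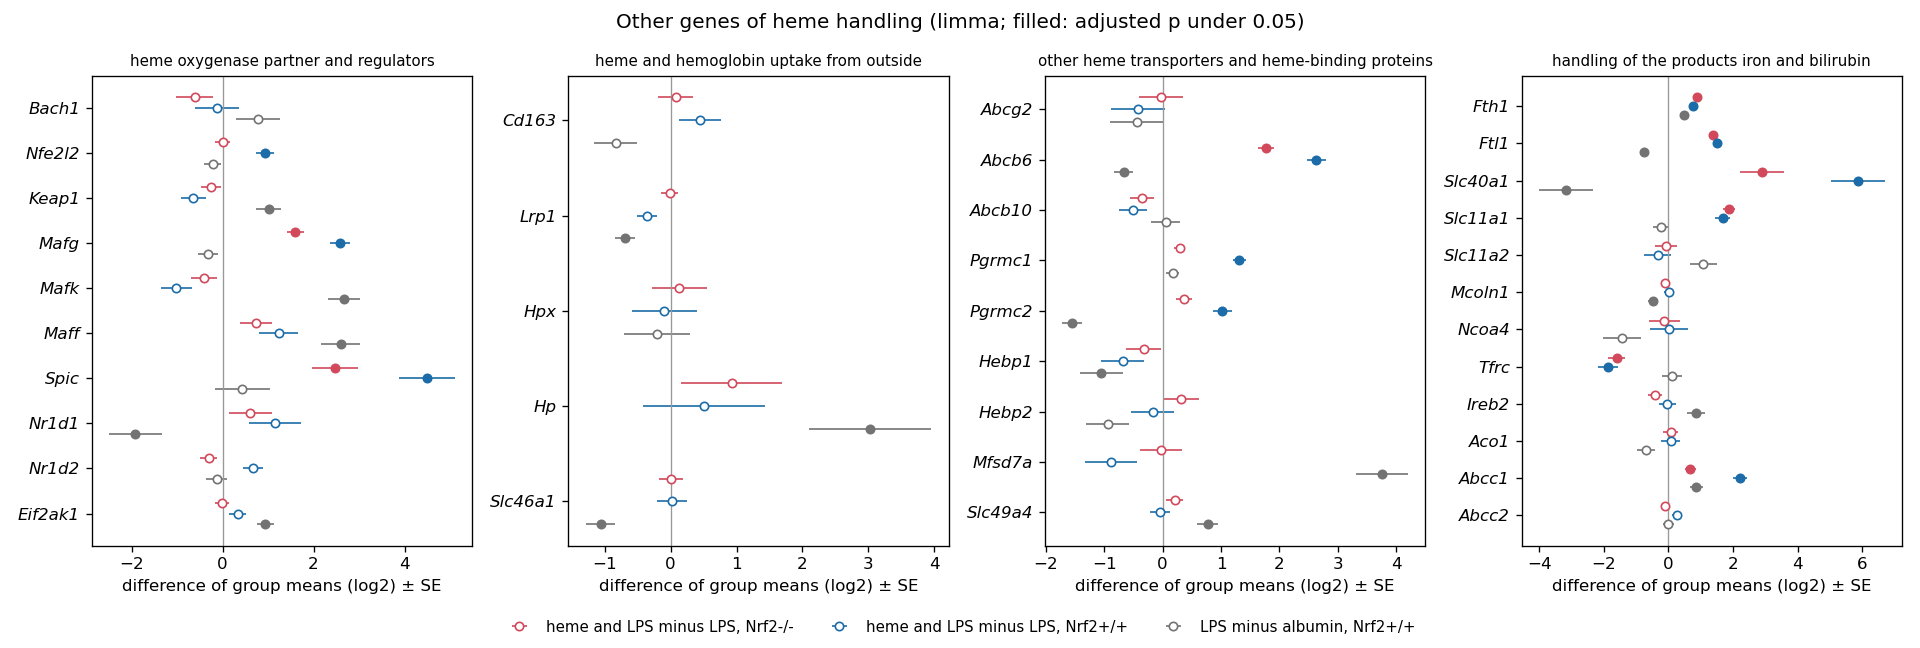
Differences of group means on the log2 scale ± SE for the measured genes of the 4 lists, for heme and LPS minus LPS in the knockout (red) and wild type (blue) and for LPS minus albumin in wild type (grey); filled points passed at an adjusted p under 0.05. Mafg, Spic, Abcb6 and Slc40a1 are filled and to the right of 0 with heme in both genotypes, Tfrc is to the left in both, and Pgrmc1 with heme is filled in wild type and open in the knockout.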

How the data were processed

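Samples (Cy5) and an untreated macrophage reference (Cy3) were labelled from 500 ng of total RNA for 2-colour Agilent arrays, per the labels' protocols. The deposited values are log10 ratios made with Agilent Feature Extraction 10.5.1.1, per the submitters' processing notes. The log10 scale and the direction, Cy5 over Cy3, were inferred from the form of the values and the dye labels, and the lowest correlation between 2 arrays over 44397 features was 0.04. The sources used here do not state the authors' background and dye correction. Of the features 33026 had 1 gene symbol, 0 had several and 11371 had none, and 32438 probes were matched by gene ID to a RefSeq table, which changed 0 symbols.

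Probe values were turned into log2 ratios and averaged by gene. One model of group means over 18 arrays was fitted to 22485 genes with limma 3.58.1 in R 4.3.3 (two-sided, Benjamini-Hochberg adjustment, threshold 0.05), after the code was tested on simulated data. It had no term for the array letters, so every adjusted p not named as blocked ignores any pairing of arrays. A p-value measures only the spread between these arrays, whose number limits the precision. In the main fit that spread was 1 value per gene over all 5 groups, whichever groups were compared. The groups were unequal in spread, and the SD on the albumin arrays was the smallest for each of the 7 genes. For Hmox1 it was 0.04 there and 0.68 on the knockout heme and LPS arrays, and for Slc48a1 0.01 and 0.26. Tables and figures used Python 3.11.15, pandas 2.3.3, scipy 1.17.1 and matplotlib 3.10.9. The 7 genes, the lists and the motifs were chosen with earlier results of these data known. The text names all 7 genes, and from each list up to 3 genes past the threshold with the greatest change with heme in each genotype, with Nfe2l2, Bach1 and Por. The 3 uptake genes that LPS changed were named after their values were seen.

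Deviations of same-letter arrays from their group means correlated at 0.22 to 0.59 between knockout groups, 0.23 to 0.53 between genotypes under heme and LPS, and 0.20 to 0.58 between genotypes under LPS. Every pair there exceeded 0.1, so letters were treated as possible pairs in these comparisons, from the data and not the labels. The letter did not always single out the pairs. Between knockout groups, heme array b with LPS array c (0.36) and c with b (0.32) exceeded b with b (0.23) and c with c (0.22). The same-letter range was -0.02 to 0.02 with albumin, and 0.01 to 0.48 between wild-type heme and LPS and LPS. In the latter, b with c (0.36) and c with b (0.32) exceeded b with b (0.01) and c with c (0.01). Alternatives were a replicate block, median centring, quantile normalization, zeros as missing, a limit of 9 arrays at 0, the median over probes, the compared groups alone, and leaving out arrays. A block on the LPS-treated arrays only, and leaving out the arrays lettered d and e, were chosen after seeing the data.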

Additional observations from a re-analysis of the deposited data

Results flagged for a closer look

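In the knockout LPS group, array b had a log2 ratio of -0.46 for Hmox2, while the other 3 arrays of the group lay at -0.13, -0.13 and -0.09. It was flagged because its gap to the nearest array took up most of the range of the group. This was 1 flag among 14 groups of 4 or 5 arrays that were examined, and chance flags about 1 in 20. Array b was also next to the lowest of the knockout heme and LPS arrays for Hmox2, at -1.04 beside -1.05 on array e.

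The response of Hmox2 to heme before LPS differed between genotypes by 0.78 (knockout minus wild type, limma adjusted p = 0.0442), which flagged it as a tested difference between groups. Between arrays of the same letter, Hmox2 fell in the knockout by 0.67, 0.57, 0.64 and 0.49 for a to d. In wild type, where the letters did not pair all the arrays, it fell by 1.58, 1.19 and 1.49 for a to c. The heme arrays did not overlap the LPS arrays in either genotype, so any matching of arrays would give falls. The call held in 6 of 28 alternatives.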

How the results depend on the processing

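For the 7 genes in 7 comparisons, 1319 of 1358 differences under 28 alternatives kept their call, 0 reversed while called, and 35 changed sign with no call in either fit; 5 of the 49 results had any changed call. The number of the 7 genes past the threshold in the interaction was 1, and it was 0 at an adjusted p under 0.01, with quantile normalization, with zeros as missing, with the limit on zeros, on the compared groups only, without the LPS-treated arrays lettered a, with the replicate block on the LPS-treated arrays only and without the arrays lettered d and e; leaving out 1 array gave 0 to 1. Between the genotypes with heme and LPS it was 3, and 1 on the compared groups only and with the replicate block on the LPS-treated arrays only. The cause was not tested. The replicate block over all 18 arrays changed no call of the 7 genes other than Blvra (adjusted p = 0.0157) and Flvcr1 (0.0106) against albumin, where letters did not pair the arrays.

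Counts over all genes moved by more than 1.5 times as follows. For heme and LPS against LPS in wild type 3303 became 1545 on the compared groups only. That fit holds fewer arrays and takes its spread from those groups alone, and the cause of the change was not tested. In the knockout 1523 became 752 on the compared groups only, 683 without the arrays lettered d and e, and 951 without the knockout LPS array a. For the interaction 213 became 116 on the compared groups only, 141 with the replicate block on LPS-treated arrays, 140 without the wild-type heme and LPS array c, 135 without the wild-type LPS array b and 323 without the knockout heme and LPS array b. For knockout against wild type 1 became 0 to 6 under LPS, and 1189 became 317 on the compared groups only and 636 without the arrays lettered d and e under heme and LPS. Of 77 results for named genes of the lists 26 had a changed call under some alternative and 0 reversed while called.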

Other observations

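Between LPS and albumin in wild type, 3 further genes of the lists had large rises. Mfsd7a, a relative of the Flvcr genes, rose by 3.76 ± 0.44 (limma adjusted p = 2.13e-05), and the small MAF genes Mafk and Maff rose by 2.67 ± 0.35 (adjusted p = 5.05e-05) and 2.60 ± 0.43 (adjusted p = 0.000400). These 3 genes were chosen after their values were seen, and none of them passed in heme and LPS against LPS in either genotype.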
